A study of Mus musculus with 7 samples.

Results

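The haem synthesis genes described here are Alas1, Alas2, Alad, Uros, Urod, Cpox, Ppox and Fech, which encode enzymes of the pathway, and Slc25a38, which encodes the mitochondrial glycine carrier. They were found by symbol in the gene count table, where all 9 of 9 had a row among 35976, and all 9 passed the filter on low counts that left 14679 genes to test. RNA came from lineage-negative cells of C57BL/6 mouse fetal liver at E14.5, the fraction left after magnetic removal of cells with mature lineage markers. The 3 control libraries carried CD45.2(+) Brd9fl/fl, in which both Brd9 alleles are flanked by loxP sites, and the 4 knockout libraries carried the same alleles with Vav1-iCre, a recombinase driven by the Vav1 promoter in blood cells, so the knockouts alone held the recombinase and its effect cannot be told apart from that of Brd9 loss. Brd9 is a bromodomain protein found in the non-canonical form of the BAF chromatin remodeller. The labels do not say whether a library is 1 embryo or a pool. The p-values set the group difference against the spread among these libraries, and some of that spread may be technical.

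Haem is built in part in mitochondria and in part in the cytosol. The pathway starts when aminolaevulinate synthase joins glycine, brought in by Slc25a38, with succinyl-CoA. Vertebrates have a pair of genes for this rate-setting step: Alas1, used in all cells and repressed by haem, and Alas2, an X-linked gene used in erythroid cells, where most haem goes into haemoglobin. Fetal liver at this stage is the main site of red cell formation.

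The sequences below are shown because they set the isozyme genes apart. The first is from the Alas2 transcript (GENCODE M21, GRCm38) and is an iron responsive hairpin, the stem and loop that iron regulatory proteins bind to hold back translation when iron is scarce; capitals mark the loop. The search asked for C, any 5 bases, the loop CAGTGN, and 5 bases that pair with the first 5, with G-T pairs allowed, on the transcript strand. Of the 9 genes only Alas2 held it before its start codon, and over all genes with such a leader 31 of 20883 did, or 0.148%. The match starts at base 90 of the transcript and ends 20 bases before the start codon, and the printed stretch crosses from exon 1 to exon 2 of 11 (first base at X 150547459, last at X 150552149, plus strand).
Alas2 hairpin: tggttcgtcctCAGTGCagggcaacagg

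The other stretches each lie upstream of a RefSeq start site on GRCm38.p6. For Alas2 the stretch chrX:150547167-150547374 on the plus strand ends where the first annotated exon begins, and capitals mark a GATA word, the kind of site that the erythroid factor Gata1 binds. For Alas1 the stretch chr9:106247906-106247935 on the minus strand carries in capitals the palindromic word that the factor Nrf1, a regulator of mitochondrial genes, recognises. It begins 195 bases before the RefSeq start at 106247730 and lies downstream of another start, at 106247954, inside an exon of a longer annotated transcript.
Alas2 upstream: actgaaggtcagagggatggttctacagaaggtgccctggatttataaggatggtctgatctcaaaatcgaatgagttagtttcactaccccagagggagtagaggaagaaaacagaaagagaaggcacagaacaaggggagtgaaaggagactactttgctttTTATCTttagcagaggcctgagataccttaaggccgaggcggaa
Alas1 upstream: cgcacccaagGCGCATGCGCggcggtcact

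Words were searched on both strands in the 250 bases before each RefSeq start site. The GATA words were AGATAA with its variant AGATAG, and TGATAA with its variant TGATAG; 26.5% of 32851 windows held at least 1. Counted by gene, since a gene can have several windows, 29.7% of 27025 genes had such a window, and so did 3 of the 8 haem genes with an entry (Alas2, Cpox and Uros). The Alas2 match begins 86 bases before the start site. The Nrf1 word in capitals above was in 0.782% of windows and 0.877% of genes and, among the 8 genes, in a window of Alas1. These are matches of letters and do not show binding.

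Alas1 was lower in the knockouts and was the only haem synthesis gene that passed the test. It held 104, 158 and 129 CPM (read counts scaled to a common library total) in the controls, against 58.0, 65.4, 69.3 and 65.5 CPM in the knockouts. All knockouts lay below all controls, and the knockouts lay closer together than the controls. The mean fell from 130 ± 27 (SD, n = 3) to 64.5 ± 4.7 CPM (SD, n = 4), to 49.5% of control. The log2 fold change was -1.01 (SE 0.13, 95% interval -1.30 to -0.72; edgeR quasi-likelihood, Benjamini-Hochberg adjusted p = 0.010). Over all genes 82 of 14679 were called, or 0.559%, with 0.545% called lower and 0.0136% higher. The Alas1 value hardly moved without control replicate 3 (-1.02, adjusted p = 0.065) or knockout replicate 2 (-1.02, adjusted p = 0.055), but the call was lost in both cases. Alas1 lies on the minus strand of chromosome 9 from 106233455 to 106248654. It shares 465 exon bases, 7.53% of its merged exons, with the antisense gene 4930500F10Rik, whose reads are not analysed here. The strand setting of the counting is not given in the sources used here, so reads of an overlapping antisense gene cannot be told apart.

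Alas2 stood on the other side. Its level was 17.6, 8.98 and 21.7 CPM in the controls, against 26.5, 31.6, 33.7 and 29.2 CPM in the knockouts. All knockouts lay above all controls, and control replicate 2 lay far below the other controls. The means were 16.1 ± 6.5 (SD, n = 3) and 30.2 ± 3.1 CPM (SD, n = 4), with a log2 fold change of 0.91 (SE 0.25, 95% interval 0.35 to 1.48). This did not pass over all genes in edgeR (adjusted p = 0.192), while DESeq2 called it (log2 fold change 0.91, adjusted p = 0.015), a test that called 2.68% of genes, 0.409% as higher. The authors' deposited table gives Alas2 0.91 (SE 0.25, adjusted p = 0.015) and Alas1 -1.01 (SE 0.15, adjusted p = 4.3e-09). Without control replicate 2 the Alas2 value was 0.62. The gene lies on the plus strand of the X chromosome from 150547375 to 150570638. It shares 311 exon bases with Apex2 on the opposite strand. Apex2 itself held 12.8 ± 0.8 and 13.4 ± 1.3 CPM.

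**Figure D1:**
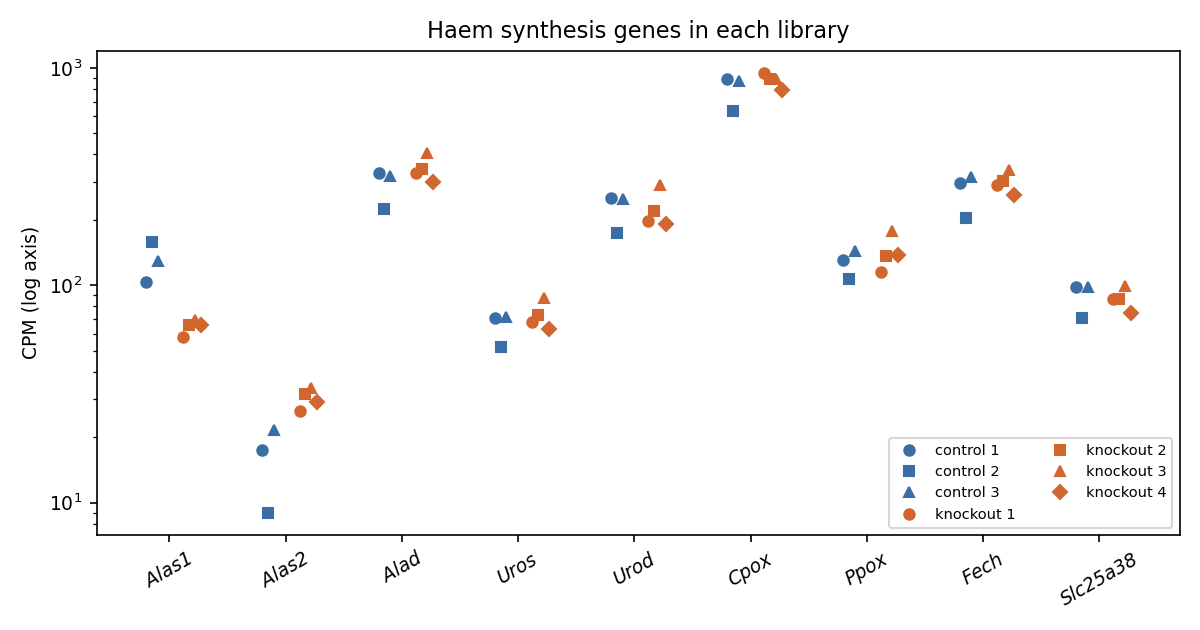
CPM of the 9 haem synthesis genes in each library on a log axis, with controls in blue and knockouts in orange and a marker shape per replicate number. Alas1 is lower in all knockouts, Alas2 is higher in all knockouts, and the groups overlap for the other 7 genes.

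Set side by side within each library, the isozymes showed a shift from Alas1 towards Alas2. The controls had 2257, 3805 and 2812 Alas1 reads and 381, 217 and 471 Alas2 reads. The knockouts had 1062, 1448, 1464 and 1343 Alas1 reads and 485, 699, 711 and 599 Alas2 reads. There were thus 5.92, 17.5 and 5.97 Alas1 reads for each Alas2 read in the controls, against 2.19, 2.07, 2.06 and 2.24 in the knockouts. On the log2 scale the ratio of Alas2 over Alas1 was -3.09 ± 0.90 (SD, n = 3) in controls and -1.10 ± 0.06 (SD, n = 4) in knockouts. The knockout ratios were nearly equal to each other, whereas control replicate 2 stood apart from its group. The difference of 1.99, a 3.98-fold change of the ratio, had a two-sided exact permutation p = 0.0286 over the 35 ways to assign 3 and 4 labels, the smallest this design can give. Without control replicate 2 the difference was 1.47, and the smallest possible p was then 0.0667. The pair was set side by side with earlier results of these data known, and each gene alone already separated the groups. The ratio therefore had to separate them too, and its p adds no support beyond the single genes. The ratio needs no scaling between libraries.

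Counting error was small beside these differences. Alas2 made up 5.40% of the reads of both genes in control replicate 2 (exact Clopper-Pearson 95% interval 4.72% to 6.14%) and 14.4% in control replicate 1 (13.1% to 15.8%). The lowest knockout share was 30.8% in replicate 4 (28.8% to 33.0%). These intervals cover counting error only.

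Per length of transcript (3089 bases for Alas1 and 2037 for Alas2, GENCODE M21), Alas1 held 42.2 ± 8.7 and 20.9 ± 1.5 CPM per kb in controls and knockouts (SD, n = 3 and 4). Alas2 held 7.89 ± 3.17 and 14.8 ± 1.5 CPM per kb. Alas2 was 16.2 ± 7.1% of the summed level of the pair in controls and 41.5 ± 1.0% in knockouts, so Alas1 was the more abundant in every library on this scale. Lengths of all merged annotated exons gave 12.8% to 30.3% in controls and 53.4% to 55.5% in knockouts, which puts Alas2 above Alas1 in the knockouts. Which isozyme led in the knockouts therefore depends on the length used, but the shift between groups does not. The summed level of both genes per kb of transcript was 50.1 ± 6.9 in controls and 35.7 ± 3.0 in knockouts; the ranges were 42.3 to 55.4 and 31.8 to 39.0.

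**Figure D2:**
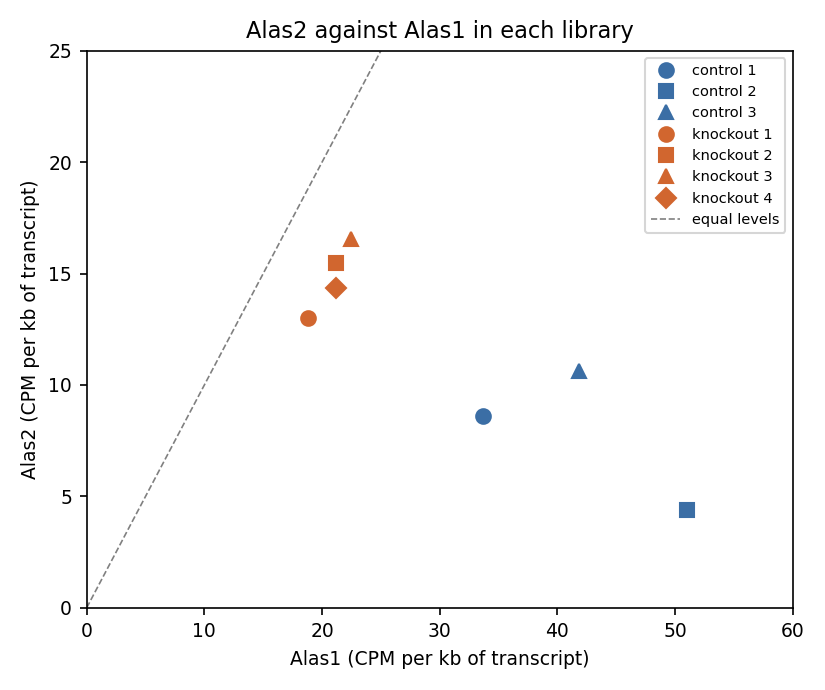
Alas1 on the horizontal and Alas2 on the vertical axis, both in CPM per kb of transcript, 1 point per library; the dashed line marks equal levels. The 4 knockouts sit close together near the line, and the controls lie to the right of and below them, with control replicate 2 farthest out.

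The enzymes after the first step did not pass the test. Alad, which joins aminolaevulinate into porphobilinogen, held 327, 225 and 317 CPM in controls and 327, 344, 407 and 299 CPM in knockouts. Its groups overlapped, with a log2 fold change of 0.25 (95% interval -0.08 to 0.58, adjusted p = 0.607), the largest of the 7 remaining genes. Uros, which closes the tetrapyrrole ring, held 70.7, 52.0 and 71.5 CPM against 68.1, 73.3, 87.0 and 63.0 CPM, a log2 fold change of 0.17 (95% interval -0.15 to 0.49). The lowest Uros value was again in control replicate 2 and the highest in knockout replicate 3. Urod, which decarboxylates the ring to coproporphyrinogen, held 253, 174 and 249 CPM against 197, 220, 289 and 192 CPM. Its means were almost equal, 226 ± 45 and 225 ± 45 CPM, and the 95% interval of the log2 fold change was -0.39 to 0.38.

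The late mitochondrial steps looked alike. Cpox, which makes protoporphyrinogen, held 889, 634 and 872 CPM in controls and 950, 890, 888 and 792 CPM in knockouts. It had the highest level of the 9 genes per kb of transcript. Ppox, which oxidises protoporphyrinogen to protoporphyrin, held 131, 107 and 144 CPM against 115, 136, 178 and 138 CPM. Fech, the ferrochelatase that inserts iron, held 294, 205 and 314 CPM against 290, 301, 338 and 260 CPM. The log2 fold changes of these genes were 0.14, 0.16 and 0.13, with 95% intervals of -0.15 to 0.43 for Cpox, -0.18 to 0.49 for Ppox and -0.20 to 0.47 for Fech. The intervals leave room for changes of either sign. Slc25a38 held 98.4, 70.5 and 98.1 CPM against 86.2, 86.5, 99.4 and 74.8 CPM, with a 95% interval of -0.34 to 0.26 around -0.04. Ppox shares 791 exon bases with B4galt3 on the opposite strand, and Cpox 204 with Gpr15.

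In all, 1 of 9 members fell and 0 rose in edgeR; at an unadjusted p under 0.05 there were 1 higher and 1 lower, against 3.95% and 6.9% of all genes, and DESeq2 called 1 higher and 1 lower. The groups did not overlap for 2 of 9, against 11.2% of all genes (4.38% with the knockouts above and 6.81% with the knockouts below). The median log2 fold change of the 9 was 0.14 and 6 were positive, beside a median of 0.01 over all genes, of which 52.4% were positive.

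**Figure D3:**
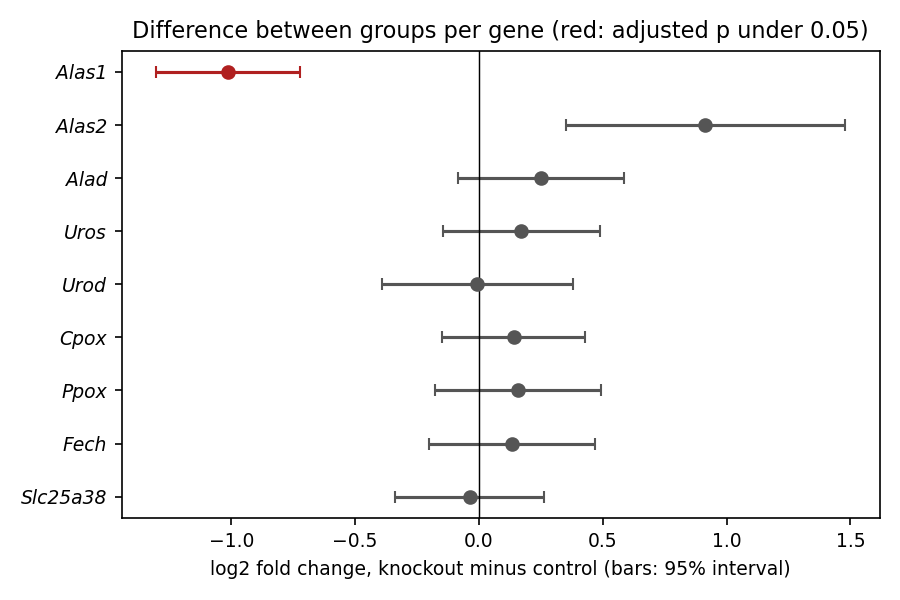
Log2 fold change of each gene, knockout minus control, with its 95% interval from the edgeR fit. The Alas1 interval lies below 0 and passed the test over all genes (red); the Alas2 interval lies above 0 but did not pass, and the other 7 intervals include 0.

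The members other than Alas1 mostly shared their lowest and highest libraries. Control replicate 2 held the lowest value of all 7 libraries for each of the 8 genes other than Alas1, and the highest value for Alas1. Knockout replicate 3 held the highest value for 7 of the 9. The summed CPM of those 8 genes was 2081, 1476 and 2087 in controls against 2059, 2083, 2320 and 1848 in knockouts. With that control left out, the log2 fold changes of Cpox and Fech were -0.0022 and -0.034. Those near 0 also changed sign: Urod was above 0 in 5 of the 7 fits that left out a library and Slc25a38 in 3 of 7.

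Per kb of transcript, the order of control means was Cpox (258), Alad (232), Urod (152), Ppox (69.7), Slc25a38 (49.7), Alas1 (42.2), Fech (41.2), Uros (36.7) and Alas2 (7.89). Control ranges of Cpox (205 to 287) and Alad (180 to 263) overlapped, as did those of Slc25a38, Alas1, Fech and Uros with each other. In the knockouts Alas1 moved from the sixth to the eighth place, where its range of 18.8 to 22.4 lay below that of Uros (35.8 to 49.4) and above that of Alas2 (13.0 to 16.5). Fech has annotated transcripts of very different length, so its place is uncertain. Other places depend on the length too, since merged exons span 6661 bases for Cpox and 1871 for Alad. With merged exons Alas1 and Alas2 change places in the knockouts, as given above.

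Cell type markers were summed per library beside these genes, since in bulk RNA fewer cells of a type and less RNA per cell cannot be told apart. Progenitor markers were present in all libraries. Kit held 267, 313 and 301 CPM in controls and 160, 204, 202 and 212 CPM in knockouts, without overlap. Its log2 fold change was -0.59 (edgeR adjusted p = 0.056, DESeq2 adjusted p = 0.00021). Genes of lineage antigens (Cd3e, Cd8a, Cd79a, Ly6g and Klrb1c) were at or near 0, except 3.46 CPM of Cd3e in knockout replicate 3, while Itgam, which marks myeloid cells, held 23.3 to 87.7 CPM. Brd9 held 33.1 ± 3.0 CPM in controls and 11.5 ± 2.0 CPM in knockouts, and each library lay on the side of its label.

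For Alas1 the neutrophil list moved in the same direction. Of 14 tested markers 6 fell and 0 rose in edgeR (10 lower and 1 higher at an unadjusted p under 0.05; 7 lower and 0 higher in DESeq2). The 1 higher was Mmp8, a neutrophil collagenase at 0.46 ± 0.34 CPM in controls and 1.84 ± 1.14 CPM in knockouts, named after its values were seen. Over all genes edgeR called 0.545% lower and 0.0136% higher, with 6.9% lower and 3.95% higher at an unadjusted p under 0.05. DESeq2 called 333 of 14671 genes lower and 60 higher. The summed CPM of the 14 neutrophil markers was 4891, 8695 and 6973 in controls and 1659, 2208, 3793 and 2093 in knockouts. Control replicate 2 was the highest and control replicate 1 the lowest control in both this sum and Alas1. Alas1 per 1000 CPM of the neutrophil sum was 19.3 ± 1.7 (SD, n = 3) in controls and 28.5 ± 7.2 (SD, n = 4) in knockouts; knockout replicate 3, at 18.3, lay within the control range of 18.1 to 21.3. All 11 tested macrophage markers were lower too, of which 0 passed in edgeR, 7 at an unadjusted p under 0.05, and 5 in DESeq2; their sums ranged from 233 to 317 in controls and from 89.6 to 172 in knockouts. The part of either in the Alas1 difference was not tested. Of 12 progenitor and 12 megakaryocyte markers 0 passed in edgeR. At an unadjusted p under 0.05 there were 2 higher and 1 lower, and 0 higher and 1 lower. DESeq2 called 1 progenitor marker lower, Kit. The sums of both lists overlapped between groups.

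For Alas2 the erythroid list gave no such shift. Of 21 tested markers 0 passed in edgeR (4 higher and 3 lower at an unadjusted p under 0.05; 2 higher and 3 lower in DESeq2), with a median log2 fold change of 0.05. Their summed CPM was 4938, 3469 and 4992 in controls and 4136, 4384, 4493 and 3999 in knockouts. The knockouts lay within the control range, whose low end was control replicate 2, and below control replicates 1 and 3. Of 14 hepatocyte markers 13 were positive and 0 passed (0 at an unadjusted p under 0.05 and 0 in DESeq2), with sums from 9763 to 17059 in controls and 12227 to 21848 in knockouts. Alas2 per 1000 CPM of the erythroid sum was 3.56, 2.59 and 4.34 in controls and 6.40, 7.20, 7.50 and 7.30 in knockouts, with no overlap. Single erythroid genes differed in direction: Car1, a carbonic anhydrase, held 17.9 ± 1.8 and 29.2 ± 6.2 CPM and Hemgn, a nuclear protein of blood progenitors, 166 ± 41 and 98.8 ± 10.4 CPM.

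**Figure D4:**
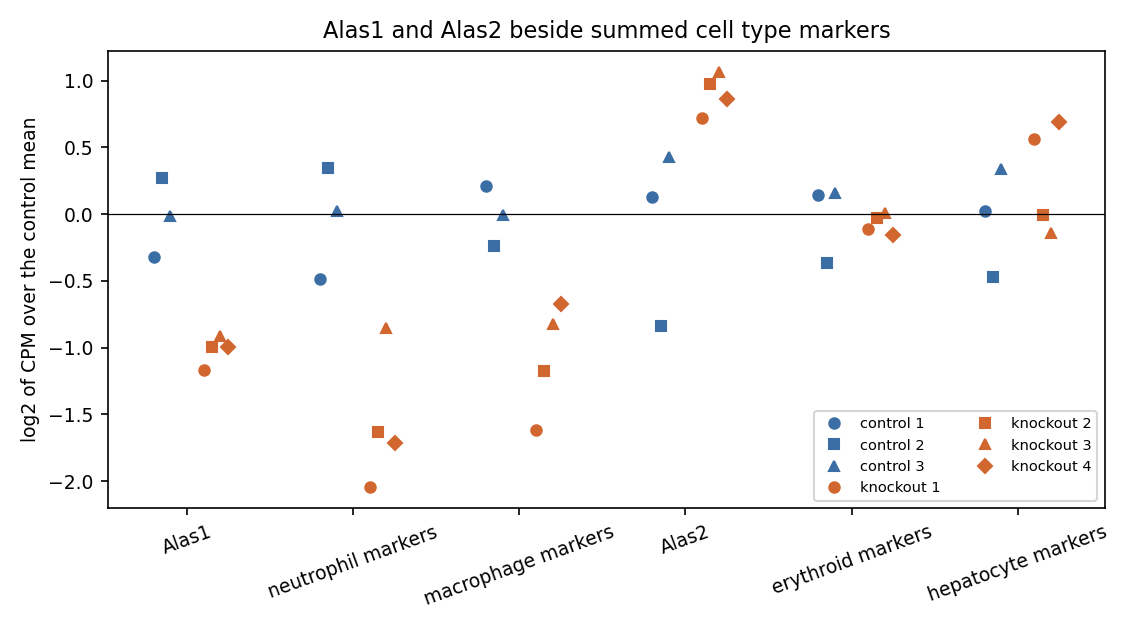
Log2 of CPM over the control mean in each library for Alas1, Alas2 and the summed markers of 4 cell types. Alas1 and the neutrophil and macrophage sums are lower in all knockouts. Alas2 is higher in all knockouts. The erythroid sums of the knockouts lie within the control range, whose low end is control replicate 2, and below the other controls.

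Because Alas2 is X-linked, Xist, the RNA of the inactive X chromosome in female cells, was set beside it. Control replicates 1 and 3 and knockout replicate 2 held 740 to 802 CPM of Xist, and the other 4 libraries 0.109 to 0.373 CPM. Among libraries with Xist, Alas2 was 17.6 and 21.7 CPM in controls and 31.6 CPM in the knockout. Among those without, it was 8.98 CPM in the control and 26.5, 33.7 and 29.2 CPM in the knockouts, so it was higher in knockouts in both sets, each of which is too small for a test. Alas1 was lower in both, at 104 and 129 against 65.4 CPM with Xist, and at 158 against 58.0, 69.3 and 65.5 CPM without. With the Xist level as a covariate Alas1 had -1.08 (adjusted p = 0.025) and Alas2 1.23 (adjusted p = 0.128) in edgeR.

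Genes around the pathway were taken from 7 lists with 59 genes, all tested. None passed in edgeR, where 0.559% of all genes were called. At an unadjusted p under 0.05 there were 5 higher and 4 lower, against 3.95% and 6.9% of all genes. DESeq2 called 2 lower, where it called 333 of 14671 genes lower in all, and limma-voom called 0. The median log2 fold change of the 59 was 0.07 and 44 were positive. Over all genes the median was 0.01 and 52.4% were positive.

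Breakdown and iron export held the genes that DESeq2 called. Hmox1, the inducible haem oxygenase that opens the haem ring, held 68.5, 31.7 and 43.4 CPM in controls and 12.1, 17.3, 28.4 and 28.2 CPM in knockouts, all knockouts below all controls. Its log2 fold change was -1.15 (SE 0.32; edgeR adjusted p = 0.205, DESeq2 adjusted p = 0.013). Slc40a1, the iron exporter ferroportin, held 113, 79.8 and 109 CPM against 73.2, 65.8, 73.2 and 76.5 CPM, a log2 fold change of -0.48 (edgeR adjusted p = 0.147, DESeq2 adjusted p = 0.030). Both are strongly expressed by macrophages that clear red cells, whose summed markers are given above; their part here was not tested. Of 8 export and breakdown genes, 6 were positive. Of 12 iron supply genes, 9 were positive, with a median of 0.08; Slc25a37, the erythroid mitochondrial iron importer, held 220 ± 36 and 250 ± 14 CPM, and Ncoa4, the ferritin receptor of autophagy, 240 ± 21 and 203 ± 10 CPM.

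Porphyrin transport had the highest median of the 7 lists, 0.22 over 7 genes, with 5 positive. At an unadjusted p under 0.05, 3 were higher, against 3.95% of all genes. Abcg2, a porphyrin exporter, held 67.7, 53.0 and 65.9 CPM in controls and 82.2, 74.2, 80.2 and 71.8 CPM in knockouts, without overlap (adjusted p = 0.288). Tmem14c, which moves protoporphyrinogen into the mitochondrial matrix, held 318 ± 43 and 397 ± 55 CPM, and Abcb6, a porphyrin transporter, 72.2 ± 7.9 and 85.3 ± 6.6 CPM. In the haem sensing and control list, with a median of 0.07, Bach1, a haem-binding repressor, held 56.7 ± 2.8 and 45.1 ± 6.2 CPM without overlap, and Clpp, the protease partner of the ClpX unfoldase that acts on aminolaevulinate synthase, 49.6 ± 3.8 and 59.9 ± 6.0 CPM. The factor Nrf1, whose word stands before the Alas1 start at 106247730, held 63.5 ± 1.2 and 71.1 ± 5.2 CPM. Medians were 0.03 over 11 iron-sulphur cluster genes, 0.09 over 3 haem a and c genes and 0.06 over 8 genes of glycine and succinyl-CoA supply, where Shmt2, the mitochondrial enzyme that makes glycine, held 346 ± 20 and 411 ± 52 CPM.

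**Figure D5:**
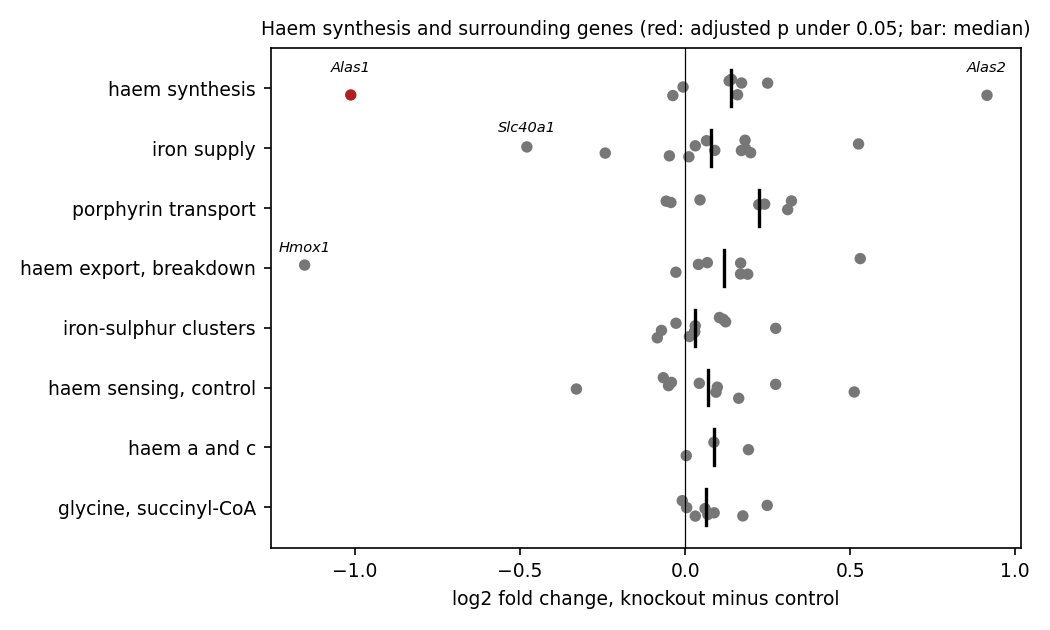
Log2 fold changes, knockout minus control, of the haem synthesis genes and of the 7 surrounding lists, 1 point per gene with the list's median as a bar. Alas1 is the only point that passed over all genes (red), and Alas1, Alas2 and Hmox1 lie farther from 0 than the other genes shown.

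The genes most like Alas2 over the log2 CPM of the 7 libraries, among 12189 genes that averaged 1 CPM or more, were Rassf7 (Pearson r = 0.989), Zfp639 (0.984), Rps6ka4 (0.982), Hba-a2 (0.972) and Hba-a1 (0.970). The alpha globin genes Hba-a1 and Hba-a2 are near-identical copies whose reads the counting could have split; Hba-a1 held 660 ± 253 CPM in controls and 1282 ± 274 CPM in knockouts. The genes most like Alas1 were Olr1 (0.997), Fgl2 (0.997), Slc8b1 (0.995), Atp8b4 (0.994) and Spn (0.993). All 5 had lower means in the knockouts, from 28.4 ± 7.9 to 11.2 ± 0.9 CPM for Olr1, a scavenger receptor for oxidised lipoprotein, and from 190 ± 54 to 79.3 ± 9.3 CPM for Atp8b4. These values include the difference between groups and are descriptions over 7 libraries. Of the haem genes, Alad was the most like Alas2 (r = 0.859) and Urod the least among the later enzymes (0.465). The carrier Slc25a38 had r = 0.439 with Alas2, and Alas1 had r = -0.861.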

How the data were processed

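Read counts per gene symbol for 3 control and 4 knockout libraries were used as deposited; per the submitters' processing notes the authors used HISAT2, mm10, featureCounts and DESeq2, with versions, annotation and strand setting not given in the sources used here. The authors' deposited comparison holds, per gene, a mean signal of size-factor-scaled counts, log2 fold changes, the Wald test score and p-values. Totals ran from 18748885 to 23571878 counts. Of the symbols, 14 turned into dates were read as septins.

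Counts were filtered with filterByExpr, scaled by TMM and tested with edgeR 4.0.16 (quasi-likelihood, two-sided) in R 4.3.3, the model holding group alone, called at an adjusted p under 0.05. CPM is relative to the TMM-scaled total of tested genes; log2 CPM used a prior count of 2, and the Alas2 to Alas1 ratio a pseudocount of 0.5. The script was tested on simulated data. Alternatives used DESeq2 1.42.0, limma 3.58.1 and sva 3.50.0. Lengths are those of the principal protein-coding transcript in GENCODE M21. Promoters come from RefSeq (GRCm38.p6) for 8 of 9 members. Mfsd7b and Mfsd7c are older symbols of Flvcr1 and Flvcr2; Ahsp and Ly76 had no row. Named are all members, up to 4 genes of a list with the smallest p, 5 genes most like Alas1 and Alas2, Brd9 and Xist; overlapping genes and markers named for their level were chosen after values were seen. Members and lists were chosen with earlier results of these data known. Some genes are not reported here.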

Additional observations from a re-analysis of the deposited data

How the results depend on the processing

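Alas1 stayed lower in all fits run, from -1.15 to -0.85 without single libraries, and lost its call without control replicate 3 or knockout replicate 2, so that 0 members were then called. It was also lost with a surrogate variable from unscaled counts, chosen after seeing the data (-0.77, 0 members called, 9 genes in all). Alas2 ran from 0.62 to 1.19 without single libraries and was called by DESeq2 alone (0.91, 2 members and 2 surrounding genes called). Surrounding genes called ranged from 0 to 1 without single libraries, the 1 being Slc40a1 without control replicate 2. The number of all genes called, 82, ranged from 20 to 120 without single libraries (49 and 20 without control replicates 2 and 3, and 51, 21 and 37 without knockout replicates 1, 2 and 4); it was 228 with no filter, 393 with DESeq2, 52 with Xist as covariate and 141 with 1 surrogate variable from scaled counts. The ratio difference ran from 1.47 to 2.26 without single libraries, where the design cannot reach 0.05. Same-numbered libraries deviated together with r = 0.17, -0.02 and -0.01. The labels name no pairing, and these values, with nothing to set them against, cannot show whether the numbers pair libraries. Pairing same-numbered libraries left out knockout replicate 4. The ratio difference was then 2.02 (exact sign-flip p = 0.25 over 8 flips, the smallest possible). With a replicate block in edgeR 121 genes were called, and Urod was at 0.065 and Slc25a38 at 0.041. Both were also above 0 with Xist as covariate (0.11 and 0.072), and Urod with 1 surrogate variable (0.026); Cpox was at -0.047 with that from unscaled counts. Without single libraries Urod ran from -0.16 to 0.087, Slc25a38 from -0.18 to 0.043, Cpox from -0.0022 to 0.23 and Fech from -0.034 to 0.25. The cause was not tested. Of 10 groups of 4 knockout values checked, 0 held a library beyond Dixon's limit. The control values were not checked in this way, and control replicate 2 stood apart from its group in the ratio.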
